A study of Liolophura hirtosa with 16 samples.

Results

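The 23 sequences described here were brighter in the iron-deposited section of the chiton radula than in any other tissue of the study, out of 493 sequences on the array (4.67%). The tissues were the immature section, the iron-deposited section and the calcium-deposited section of the radula of Acanthopleura hirtosa, a chiton whose organism label reads Liolophura hirtosa, and foot muscle of the same animals. RNA of 12 wild adult animals was pooled from 3 animals per pool, with 4 pools and 4 single-colour Cy5 arrays for each tissue, 16 arrays in all. Foot muscle, a tissue that forms no teeth, served as the outside comparison. Every group was therefore untreated tissue of wild adults, no group represents a single animal, and age beyond "adult" is not given in the labels.

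Members were chosen by their measured values. The authors' table of relative intensities was put on a log2 scale, quantile-normalised over the 16 arrays and averaged over the probes of a sequence, and then over the 4 arrays of a tissue. A sequence was kept where the iron mean lay at least 0.5 above each of the 3 other means. Sequences high in all 3 sections over foot muscle, with sections differing by less than 1, were to be removed, and this exclusion removed 0 of the 23 that passed. All 23 members were measured on every array and no filter on low values was applied. The distance by which iron exceeds the highest other tissue is called the margin below. Because iron minus each other tissue chose the members, those differences are given as descriptions without a test. The margin did not use the order of the immature section, the calcium section and foot muscle among themselves, and that order was tested. The exclusion does compare the sections with foot muscle, but it removed 0 sequences. Each of the 3 means had to lie at least 0.5 below iron, so their levels were not free of the choice.

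Chitons feed with a radula whose tooth rows are made continuously at the rear and carried forward to the worn front. A chitin scaffold is laid down first. Epithelial cells around each tooth then load the cusp of the major lateral teeth with iron, stored on the way in ferritin. The iron is deposited as ferrihydrite that becomes magnetite, and the core is later filled with a calcium mineral. Successive sections along one ribbon are thus successive stages of mineralization, and the iron-deposited section is where the iron mineral has entered the cusps. The files pair no sequence with a gene, so that members are given by contig or clone name, no role is assigned to any of them, and the tissues could not be checked against marker genes. RNA came from whole sections, in which fewer cells of a type and less RNA per cell cannot be told apart.

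The probes are what the arrays measured, and those that carry the values below are shown first. Each was 35 to 40 bases long, and positions are bases within the named sequence, not places in a genome. For 9 of the 10 members with the largest margins, the probe with the largest margin reads, 5′ to 3′ as listed in the scanner tables:
Contig[0058], bases 721 to 755: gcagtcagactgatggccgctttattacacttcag
Contig[0158], bases 240 to 274: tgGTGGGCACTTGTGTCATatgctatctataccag
Contig[0267], bases 305 to 339: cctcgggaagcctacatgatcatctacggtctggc
Contig[0154], bases 241 to 275: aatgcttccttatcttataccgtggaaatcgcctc
PlateD-G3-5-SMART, bases 273 to 307: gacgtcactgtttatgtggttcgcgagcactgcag
Contig[0064], bases 1109 to 1143: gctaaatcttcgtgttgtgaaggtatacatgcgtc
Plate-D-H10-5-SMART, bases 625 to 659: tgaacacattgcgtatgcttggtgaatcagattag
Contig[0082], bases 593 to 627: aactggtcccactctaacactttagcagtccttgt
Plate-A-B12-5-SMART, bases 409 to 443: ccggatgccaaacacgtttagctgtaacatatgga
Capitals in Contig[0158] mark a run that recurs in another probe of the same sequence, described further on. The other 4 probes of Contig[0058], the leading member, are shown because the means of all 5 gave the same order of tissues:
Contig[0058], bases 37 to 71: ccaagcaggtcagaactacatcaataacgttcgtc
Contig[0058], bases 249 to 283: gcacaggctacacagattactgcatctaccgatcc
Contig[0058], bases 329 to 363: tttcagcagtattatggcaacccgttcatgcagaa
Contig[0058], bases 587 to 623: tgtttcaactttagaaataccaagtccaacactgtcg

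The deposited sources disagreed on 4 arrays that enter these values. In the authors' value table, the columns of immature replicates 2 and 4 were constant multiples of the scanner files recorded for calcium replicates 2 and 4, and the reverse, while the other 12 columns matched their own files. Levels here follow the value table, on which the rule is defined, and the effect of leaving the 4 arrays out or of taking the scanner files as recorded stands beside the results. Among the 23 members, the column of immature replicate 2 lay nearer to the undisputed immature mean than to the undisputed calcium mean in 22, and that of replicate 4 in 23. The column of calcium replicate 2 lay nearer to the undisputed calcium mean in 19 members and that of replicate 4 in 20. The members were chosen on means that include these columns, and the share over all sequences was not counted. These counts therefore do not settle which source is right. With the 4 arrays left out, 20 sequences met the rule, all of them among the 23. With the files as recorded, 29 sequences met it, 21 of them among the 23. Median foreground per array was 200.1 to 426.3 scanner units, with 0 to 2 probes at the highest reading of 65535. Precision was limited by the number of arrays. Because no background was recorded, a difference that involves dim values may be smaller than the change in RNA, by an amount that cannot be given.

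**Figure D1:**
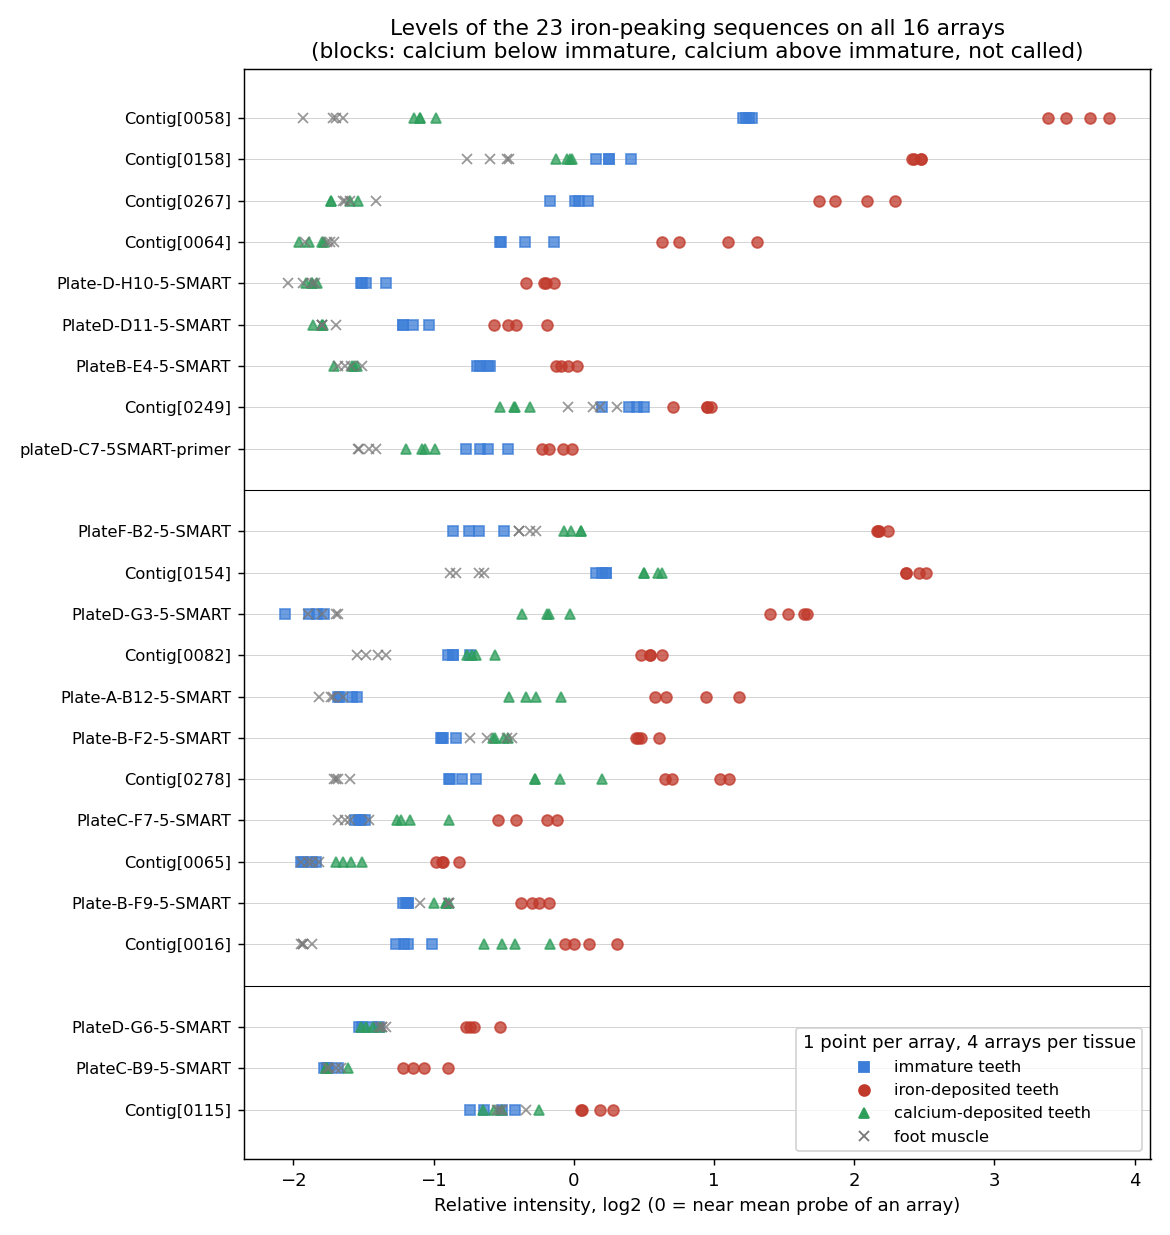
Relative intensity on a log2 scale (horizontal axis, 0 near the mean probe of an array) of each of the 23 sequences (rows), with 1 point per array for 4 arrays of immature teeth, iron-deposited teeth, calcium-deposited teeth and foot muscle. In every row the 4 iron arrays lie to the right of the other 12, and the 3 blocks hold the 9 sequences called lower in calcium than in immature teeth, the 11 called higher and the 3 not called.

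The margins of the 23 members ran from 0.51 to 2.36 with a median of 0.99, which is 1.99-fold. Iron exceeded the next tissue by at least 1 in 11 members and by at least 2 in 4 of them. Over all 493 sequences the median margin was -0.19. All 4 iron arrays lay above all 12 other arrays in 23 of 23 members, against 8.11% of all sequences. The rule largely fixes that count, and nothing is read from it. The smallest gap between the lowest iron array and the highest other array was 0.11, in Contig[0016], and the widest was 2.11, in Contig[0058] and in PlateF-B2-5-SMART. Median folds of iron over the other tissues were 2.39 for the immature section, 2.36 for the calcium section and 3.25 for foot muscle.

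Contig[0058] had the largest margin. Replicates 1 to 4 read 1.25, 1.23, 1.27 and 1.21 in the immature section, 3.51, 3.38, 3.68 and 3.82 in the iron section, -1.10, -1.14, -0.98 and -1.10 in the calcium section, and -1.70, -1.65, -1.93 and -1.72 in foot muscle, on the log2 scale of relative intensity. All 4 tissues were separated without overlap, with iron highest and foot muscle lowest. Iron was 5.13-fold above the immature section, 25.6-fold above the calcium section and 40.8-fold above foot muscle. The disputed arrays, replicates 2 and 4, lay beside the undisputed arrays of the section that the value table gives them. Taken as recorded, the files would give 2 immature arrays at the level of the calcium section and 2 calcium arrays at the level of the immature section.

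PlateF-B2-5-SMART and Contig[0158] came next, each with a tight iron group. PlateF-B2-5-SMART read -0.75, -0.68, -0.86 and -0.50 in the immature section, 2.18, 2.24, 2.16 and 2.17 in the iron section, 0.05, 0.05, -0.07 and -0.02 in the calcium section, and -0.39, -0.27, -0.39 and -0.31 in foot muscle. Its immature arrays were the lowest of the 4 tissues, and iron was 7.40-fold above them, 4.55-fold above calcium and 5.76-fold above foot muscle. The sequence is 170 bases long and each of its 4 probes overlaps the next, so that neighbours share bases. Contig[0158] read 0.41, 0.25, 0.25 and 0.16 in the immature section, 2.43, 2.41, 2.48 and 2.48 in the iron section, -0.01, -0.05, -0.13 and -0.03 in the calcium section, and -0.60, -0.46, -0.76 and -0.48 in foot muscle. Iron arrays of this contig had an SD of 0.036, the smallest among the members, and its order after iron was immature, calcium and foot muscle, without overlap.

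Contig[0267] and Contig[0154] differed in which tissue came second. In Contig[0267] the values were 0.04, 0.01, 0.10 and -0.17 in the immature section, 1.75, 1.86, 2.09 and 2.29 in the iron section, -1.54, -1.60, -1.73 and -1.73 in the calcium section, and -1.41, -1.60, -1.63 and -1.65 in foot muscle. Calcium and foot muscle arrays overlapped, and immature arrays lay between them and iron. Contig[0154] read 0.23, 0.16, 0.23 and 0.20 in the immature section, 2.51, 2.37, 2.46 and 2.37 in the iron section, 0.63, 0.60, 0.50 and 0.50 in the calcium section, and -0.84, -0.68, -0.88 and -0.64 in foot muscle. Here calcium was second and foot muscle lowest, with no overlap between any of the 4 groups. Iron over foot muscle was 11.9-fold in Contig[0267] and 9.11-fold in Contig[0154].

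PlateD-G3-5-SMART had the widest fold of iron over the immature section, 10.9-fold. It read -2.06, -1.78, -1.89 and -1.83 in the immature section, 1.53, 1.40, 1.66 and 1.64 in the iron section, -0.19, -0.37, -0.03 and -0.18 in the calcium section, and -1.80, -1.68, -1.90 and -1.70 in foot muscle. Immature and foot muscle arrays overlapped at the dim end, and calcium arrays stood apart from both. Plate-A-B12-5-SMART likewise had calcium second, with -1.58, -1.67, -1.55 and -1.68 in the immature section, 0.58, 0.66, 1.18 and 0.94 in the iron section, -0.34, -0.46, -0.09 and -0.27 in the calcium section, and -1.65, -1.82, -1.72 and -1.73 in foot muscle. Its iron arrays had an SD of 0.28 (n = 4), wider than the other 3 tissues.

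Contig[0064] and Plate-D-H10-5-SMART had the immature section second. Contig[0064] read -0.53, -0.35, -0.14 and -0.52 in the immature section, 0.63, 0.75, 1.31 and 1.10 in the iron section, -1.89, -1.96, -1.80 and -1.78 in the calcium section, and -1.76, -1.74, -1.92 and -1.71 in foot muscle. Its iron arrays had the largest SD of the members, 0.31, and replicates 3 and 4 were the higher pair. Plate-D-H10-5-SMART read -1.52, -1.48, -1.34 and -1.51 in the immature section, -0.34, -0.21, -0.14 and -0.20 in the iron section, -1.87, -1.91, -1.83 and -1.87 in the calcium section, and -1.93, -1.87, -2.04 and -1.85 in foot muscle. Iron was 2.36-fold above the immature section and 3.25-fold above foot muscle in this clone. Contig[0082] read -0.86, -0.86, -0.74 and -0.90 in the immature section, 0.54, 0.48, 0.63 and 0.54 in the iron section, -0.70, -0.76, -0.56 and -0.73 in the calcium section, and -1.48, -1.34, -1.55 and -1.40 in foot muscle. Its immature and calcium arrays overlapped, with iron above and foot muscle below both.

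The other 13 members had margins of 0.51 to 1.02. Plate-B-F2-5-SMART and Contig[0278] led them, with iron means of 0.50 ± 0.076 and 0.88 ± 0.24 (SD, n = 4) and next highest means of -0.53 ± 0.052 and -0.11 ± 0.23 in the calcium section. At the threshold, Contig[0016], Contig[0249] and plateD-C7-5SMART-primer lay just inside with margins of 0.52, 0.51 and 0.51. Contig[0205], Contig[0002] and Contig[0078] lay just outside with 0.48, 0.48 and 0.43. The 3 members just inside were the ones lost with the 4 disputed arrays left out, and also without iron replicate 3. Leaving out each of the 16 arrays in turn kept 20 of the 23 members every time. With the median over probes in place of the mean, plateD-C7-5SMART-primer and PlateB-E4-5-SMART fell below the threshold, at 0.40 and 0.47, and with median scaling or cyclic loess Contig[0249] did not meet the rule.

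**Figure D2:**
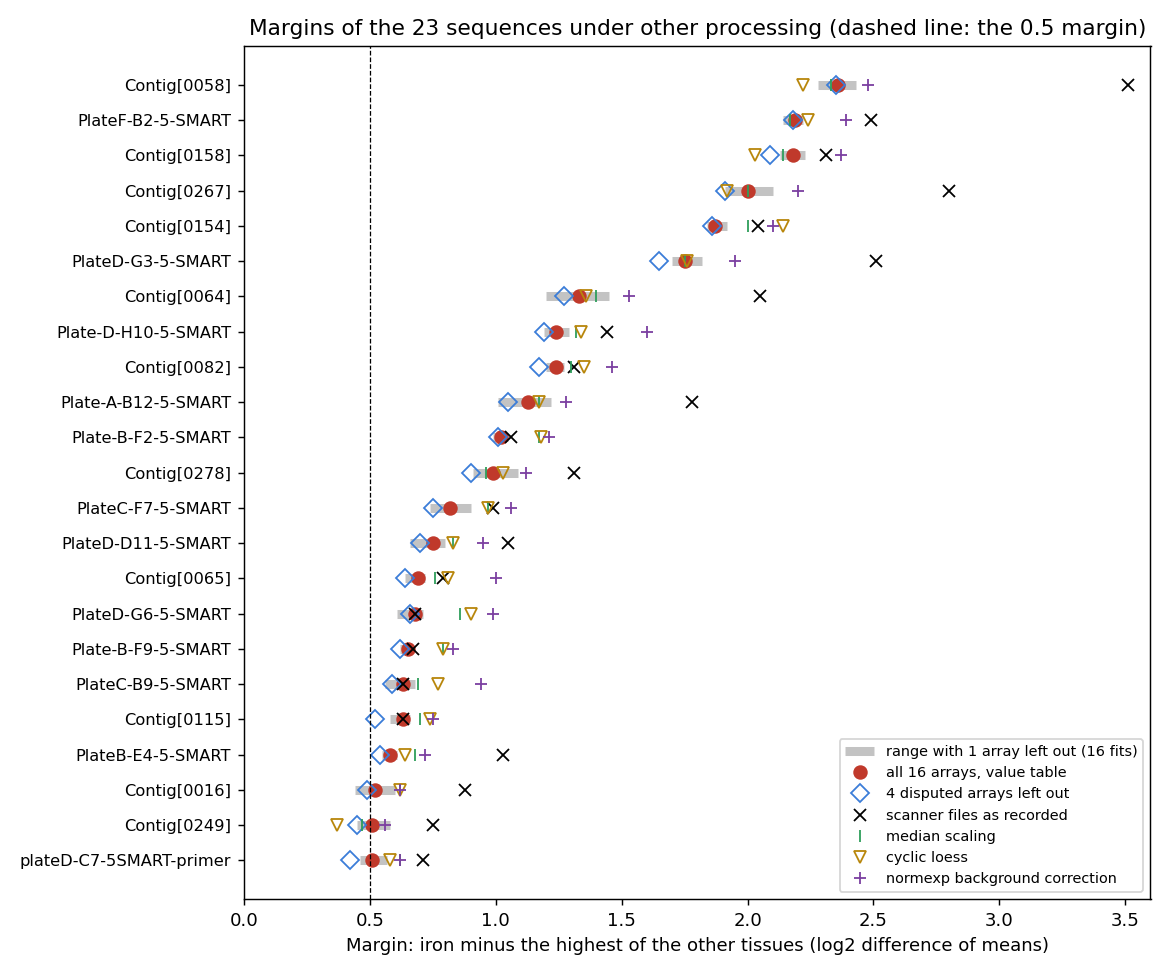
Margin (horizontal axis, log2 difference of means) of each of the 23 sequences (rows), with all 16 arrays as in the value table, with 1 array left out (grey bar, lowest to highest of 16), and under 5 other ways of processing. The 3 lowest rows, with margins of 0.51 to 0.52, cross the dashed line at 0.5, while Contig[0058] stays between 2.22 and 3.51.

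The calcium section was then set against the immature section, the later stage against the earlier, to see what these sequences did on either side of the iron stage. Limma, fitted over all 493 sequences with Benjamini-Hochberg adjustment and called at an adjusted p under 0.05, called 11 members higher and 9 lower in calcium than in immature teeth, and 24.5% of all sequences higher and 13.8% lower. The median difference was 0.08 over the members, which ranged from -2.32 to 1.70, and 0.024 over all sequences. The call on Contig[0082], at a difference of 0.15 and an adjusted p of 0.0439, ended with the 4 disputed arrays left out and without any of 10 of the 16 arrays. The other 19 calls held with the disputed arrays left out, where 19.1% of all sequences were called higher and 12.6% lower. With the files as recorded, limma called 0 members and 0 of the 493 sequences, and 0 sequences had an unadjusted p under 0.05. The members' differences then lay between -0.07 and 0.17, with each section holding 2 arrays that the value table gives to the other. Median scaling in place of quantile scaling called 5 higher and 8 lower. The calls that ended there were those on Contig[0082], Contig[0154], Contig[0158], Contig[0278], Plate-B-F2-5-SMART, Plate-B-F9-5-SMART and PlateC-F7-5-SMART, none with a change of sign. Cyclic loess called 8 higher and 9 lower, and the calls on Contig[0082], Contig[0154] and PlateC-F7-5-SMART ended. The share of all sequences called under either scaling was not counted. Fitted singly, 35 of the members' 108 probes were called higher and 36 lower, against 15.8% and 11.7% of all probes.

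In the 9 members called lower in calcium, iron was highest, immature teeth came next among the sections and calcium was the lowest section. They were Contig[0058], Contig[0158], Contig[0267], Contig[0064], Plate-D-H10-5-SMART, PlateD-D11-5-SMART, PlateB-E4-5-SMART, Contig[0249] and plateD-C7-5SMART-primer. On Contig[0058], calcium averaged -1.08 ± 0.066 and the immature section 1.24 ± 0.027 (SD, n = 4) (limma log2 difference -2.32 with SE 0.080, 4.98-fold lower, adjusted p = 2.44e-13). On Contig[0267], the log2 difference was -1.65 with SE 0.099, which is 3.13-fold lower, at a limma adjusted p of 4.35e-10. Contig[0064] fell by 1.47 on the log2 scale and PlateB-E4-5-SMART by 0.96, with limma adjusted p of 3.37e-08 and 4.11e-11. In PlateB-E4-5-SMART the calcium and immature groups stood at -1.60 ± 0.074 and -0.64 ± 0.046 (SD, n = 4), so that the gap was wide against the spread although iron exceeded immature teeth by only 0.58. Contig[0249] fell by 0.81, PlateD-D11-5-SMART by 0.66, plateD-C7-5SMART-primer by 0.45, Plate-D-H10-5-SMART by 0.41 and Contig[0158] by 0.32. No array of the calcium section overlapped the immature section in any of these 9. The call on this same contrast chose them, and the share over all sequences was not counted, so nothing is read from it.

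In the 11 members called higher in calcium, iron was highest, calcium came next among the sections and immature teeth were the lowest section. They were PlateD-G3-5-SMART, Plate-A-B12-5-SMART, Contig[0016], Contig[0278], PlateF-B2-5-SMART, Plate-B-F2-5-SMART, PlateC-F7-5-SMART, Contig[0154], Contig[0065], Plate-B-F9-5-SMART and Contig[0082]. On PlateD-G3-5-SMART, calcium averaged -0.19 ± 0.14 and the immature section -1.89 ± 0.12 (SD, n = 4) (limma log2 difference 1.70 with SE 0.081, 3.24-fold higher, adjusted p = 2.32e-11). For Plate-A-B12-5-SMART the log2 difference was 1.33 with SE 0.11, which is 2.52-fold higher, at a limma adjusted p of 2.07e-08. Contig[0016], Contig[0278] and PlateF-B2-5-SMART rose by 0.73, 0.70 and 0.70, and the other 6 by 0.15 to 0.39. For Contig[0278], median scaling gave nearly the same difference, 0.73, with a limma adjusted p of 0.0779. Arrays of the calcium and immature sections overlapped in Contig[0082] and in no other of the 11, which is again a description of sequences chosen by this call.

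PlateD-G6-5-SMART, PlateC-B9-5-SMART and Contig[0115] were called in neither direction. Their differences of calcium minus immature were 0.019, 0.019 and 0.08, with limma adjusted p of 0.878, 0.89 and 0.594. Outside iron, these 3 stood nearly level. PlateC-B9-5-SMART averaged -1.75 ± 0.042 in the immature section, -1.09 ± 0.14 in the iron section, -1.73 ± 0.076 in the calcium section and -1.72 ± 0.045 in foot muscle (SD, n = 4). The fold of iron over each of the other tissues was 1.54 to 1.72 in these 3 sequences.

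**Figure D3:**
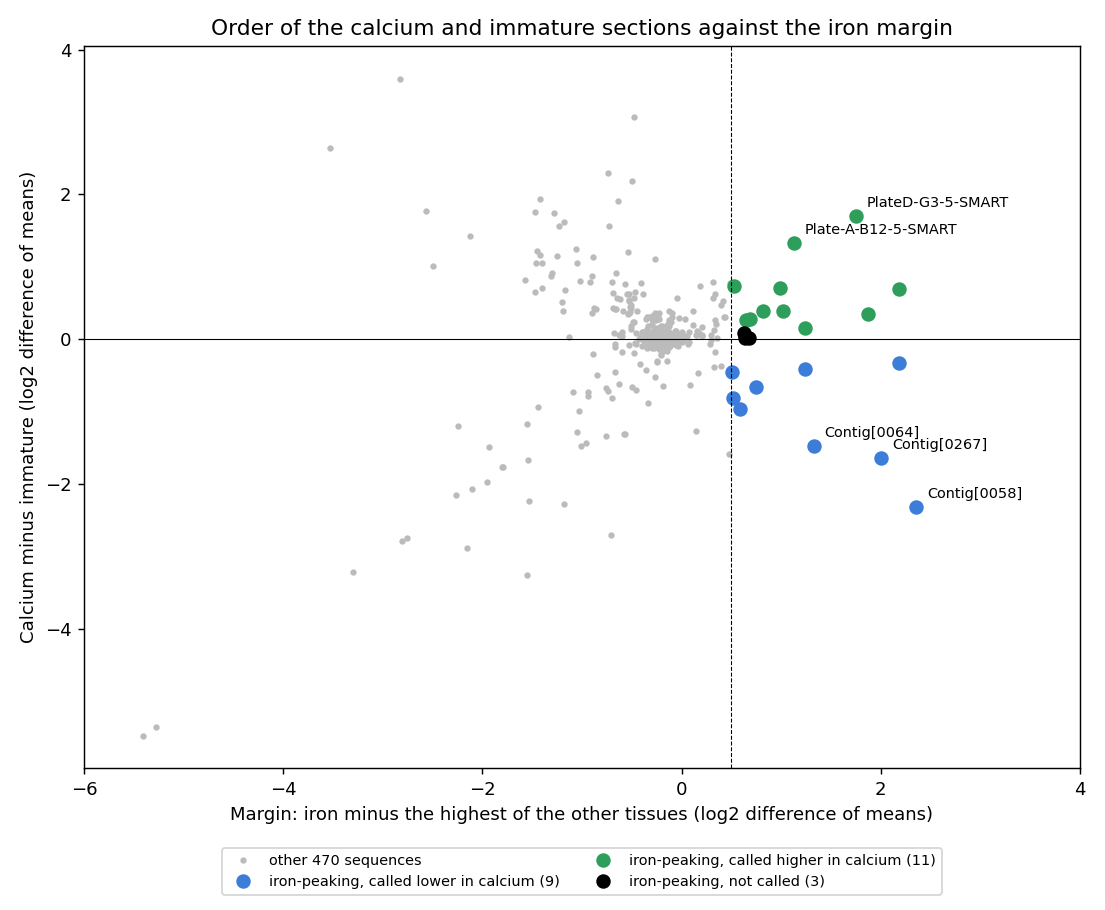
Calcium minus immature (vertical axis, log2 difference of means) against the margin of iron over the highest other tissue (horizontal axis, log2) for all 493 sequences. The 23 iron-peaking sequences lie right of the dashed line at 0.5 and spread from -2.32 (Contig[0058]) to 1.70 (PlateD-G3-5-SMART), 11 called higher in calcium, 9 called lower and 3 not called, with the other 470 sequences in grey.

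In the immature section, limma called 13 members higher and 3 lower than in foot muscle, against 15.6% and 46.2% of all sequences. The median difference was 0.46 over the members and -0.12 over all sequences. Contig[0058] led with 1.24 ± 0.027 in the immature section and -1.75 ± 0.13 in foot muscle (SD, n = 4) (limma log2 difference 2.99 with SE 0.080, 7.95-fold higher, adjusted p = 6.7e-15). Contig[0267] was 2.96-fold, Contig[0064] 2.64-fold, Contig[0154] 1.95-fold and PlateB-E4-5-SMART 1.95-fold higher. The 3 called lower were PlateF-B2-5-SMART at -0.36, Plate-B-F2-5-SMART at -0.35 and Plate-B-F9-5-SMART at -0.25. Relative to the median of all sequences, these 3 lay at -0.24, -0.23 and -0.13. Their calls ended under median scaling, where they were at -0.10, -0.10 and -0.09, and under cyclic loess, where they were at -0.13, -0.12 and -0.09. These scalings called 12 and 13 members higher and 0 lower in the immature section, and the share of all sequences called under them was not counted. Under cyclic loess the median of all sequences was -0.018. PlateD-G6-5-SMART, at -0.10, had a limma adjusted p of 0.0985, against 0.0354 with the replicate number as a block and 0.0439 without iron replicate 3. The call on Contig[0249], at 0.23 and a limma adjusted p of 0.023, ended without immature replicate 2, immature replicate 3 or foot muscle replicate 2 (0.0583, 0.0767 and 0.0828). With the 4 disputed arrays left out, limma called 13 members higher and 3 lower, against 15.0% and 35.9% of all sequences. Of the members' 108 probes, 50 were called higher and 7 lower, against 13.4% and 20.4% of all probes.

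In the calcium section, limma called 12 members higher and 1 lower than in foot muscle, against 12.8% and 30.4% of all sequences. The counts were the same with the 4 disputed arrays left out, against 12.6% and 24.9% of all sequences. Of the members' 108 probes, 42 were called higher and 6 lower, against 9.82% and 13.8% of all probes. PlateD-G3-5-SMART averaged -0.19 ± 0.14 in calcium and -1.77 ± 0.10 in foot muscle (SD, n = 4) (limma log2 difference 1.58 with SE 0.081, 2.98-fold higher, adjusted p = 1.03e-10). Contig[0278], Contig[0016], Plate-A-B12-5-SMART and Contig[0154] were 2.95-fold, 2.80-fold, 2.71-fold and 2.49-fold higher in calcium. The single member called lower was Contig[0249], at -0.43 ± 0.090 in calcium and 0.15 ± 0.15 in foot muscle (SD, n = 4; log2 -0.58, limma adjusted p = 3.43e-05). Under median scaling its difference was -0.24 with a limma adjusted p of 0.394. There 7 members were called higher, and the share of all sequences was not counted. Contig[0058] was 1.60-fold above foot muscle in calcium with an adjusted p of 3.78e-06, and its call ended under median scaling and cyclic loess (limma adjusted p = 0.142 and 0.159). With the files as recorded, 7 members were called higher and 0 lower in each of the sections, against 6.69% of all sequences higher and 24.3% lower in the immature section, and 7.1% higher and 27.2% lower in the calcium section.

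The 3 contrasts share arrays, so that their values are given side by side and not as separate evidence. In the 9 members that were lower in calcium than in immature teeth, calcium minus foot muscle ran from -0.58 to 0.67 with a median of 0.00089, and immature minus foot muscle from 0.23 to 2.99 with a median of 0.85. Contig[0267], Contig[0064], PlateD-D11-5-SMART, PlateB-E4-5-SMART and Plate-D-H10-5-SMART had calcium levels within 0.08 of foot muscle. Of these, Contig[0064] and Plate-D-H10-5-SMART, at -1.85 and -1.87, were among the dimmest 10% of sequences in calcium. In the 11 that were higher in calcium, calcium minus foot muscle ran from 0.018 to 1.58 with a median of 0.75, and immature minus foot muscle from -0.36 to 0.96 with a median of 0.07. In PlateD-G3-5-SMART, Plate-A-B12-5-SMART, PlateC-F7-5-SMART and Contig[0065] the immature section was within 0.12 of foot muscle, and the differences did not pass the test. PlateD-G3-5-SMART and Contig[0065], both at -1.89, were among the dimmest 10% of sequences in the immature section. With no background recorded, closeness of such dim values cannot be told from a lack of signal in both tissues.

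Single probes of the members gave the same tissue the highest mean throughout, by very unequal distances. Iron was the highest tissue in 108 of 108 probes on the 23 sequences, and 86 of the 108 passed the 0.5 margin singly. The rule used these values, so the count is a description. On all sequences together 108 of 2240 probes passed that margin (4.82%), of which 22 lay on 17 sequences outside the group. In 10 members every probe passed, and in 13 at least 1 did not. The margin differed within a sequence by a median of 0.76 between its probes. Plate-B-F9-5-SMART was the most even, with probe margins of 0.43 to 0.78, and Plate-D-H10-5-SMART the least, with 0.12 to 2.06.

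On Contig[0058], the last probe from the 5′ end, at bases 721 to 755, averaged 2.90 in the immature section, 5.45 in iron, 0.02 in calcium and -1.80 in foot muscle. Its margin was 2.54. The probe at bases 587 to 623 had means of -0.50, 1.42, -1.96 and -2.20 in the same order of tissues and a margin of 1.92. The means of all 5 probes of this contig thus gave the order iron, immature section, calcium section and foot muscle, from high to low. The last step was not called in every probe. Calcium minus foot muscle was 0.07 at bases 37 to 71 and 0.24 at bases 587 to 623 (limma adjusted p = 0.749 and 0.465). On Contig[0154], the probe at bases 130 to 167 averaged 2.47 in the immature section, 5.33 in iron, 3.21 in calcium and 2.19 in foot muscle, a margin of 2.12. The probe at bases 241 to 275 averaged 0.77, 3.85, 1.21 and -0.87 in that order, a margin of 2.63. Both had calcium second, whereas the probe at bases 17 to 51 had calcium lowest, with means of -1.32, -0.49, -1.51 and -1.37 in that order. The 5 margins of this contig ran from 0.82 to 2.63.

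**Figure D4:**
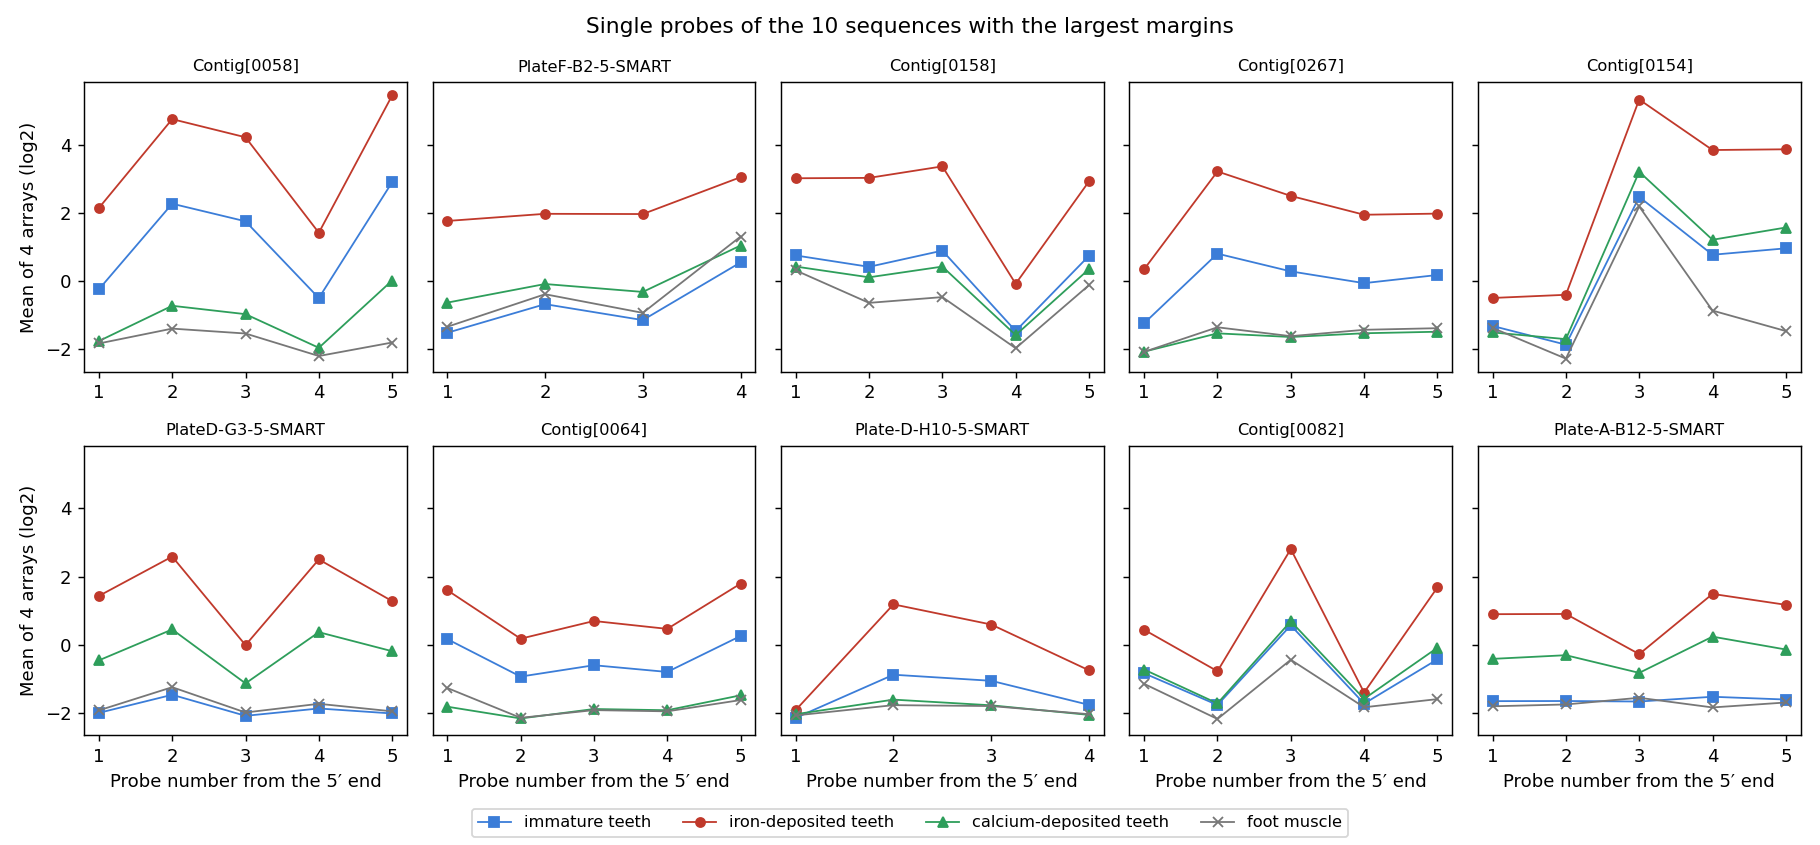
Mean of 4 arrays on the log2 scale (vertical axis) for each probe, numbered from the 5′ end of its sequence (horizontal axis), in the 10 sequences with the largest margins, with 1 line per tissue. The iron line is the highest at every probe, for example 5.45 at the last probe of Contig[0058], and its distance to the next tissue varies, down to a margin of 0.12 at the first probe of Plate-D-H10-5-SMART.

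In 3 members, probes that do not overlap share a run of at least 12 bases, that is, repeated bases inside the sequence. They are Contig[0158], Contig[0064] and PlateC-B9-5-SMART, 13.0% of the 23, against 17 of the 480 sequences that have non-overlapping probes (3.54%). This search was added after the probes had been seen, only the probed bases could be compared, and the other members reached runs of at most 10 bases. Capitals mark the longest run that each probe shares with another probe of its sequence, so that partners can carry different capitals:
Contig[0158], bases 349 to 383: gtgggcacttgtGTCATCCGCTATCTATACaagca
Contig[0158], bases 459 to 493: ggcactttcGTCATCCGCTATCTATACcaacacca
Contig[0064], bases 580 to 617: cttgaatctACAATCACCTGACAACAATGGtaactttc
Contig[0064], bases 916 to 950: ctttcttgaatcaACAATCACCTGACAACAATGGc
Contig[0064], bases 994 to 1028: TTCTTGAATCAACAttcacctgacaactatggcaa
PlateC-B9-5-SMART, bases 67 to 101: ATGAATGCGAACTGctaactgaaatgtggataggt
PlateC-B9-5-SMART, bases 241 to 275: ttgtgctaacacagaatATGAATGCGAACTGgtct
The 3 repeat-bearing probes of Contig[0158] start 109 and 110 bases apart and share 17 and 18 bases with their neighbours. The run of 21 bases in Contig[0064] recurs 336 bases further on, and the pair at bases 916 and 994 starts 78 bases apart. The margins of the repeat-bearing probes of Contig[0158] were 2.61, 2.47 and 2.18. Its probes without a shared run, at bases 73 to 107 and 405 to 439, had margins of 2.27 and 1.38. On Contig[0064] the repeat-bearing probes had margins of 1.44, 1.11 and 1.30, and the others 1.26 and 1.54. On PlateC-B9-5-SMART the repeat-bearing probes had margins of 0.58 and 0.61, and the others 0.07, 0.76 and 1.07.

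Among features that the rule did not use, the group held 11 of the 109 contigs (10.1%) and 12 of the 384 single clones (3.13%), and 16 members had 5 probes and 7 had 4. Median sequence length was 772 bases in the group, with a range of 170 to 1228, and 606 over all sequences. Median GC content of the probes was 42.9% in the group and 42.1% over all probes. Probes of the 23 members shared no run of 16 bases with a probe of any other sequence on either strand, whereas 17 sequences elsewhere on the array did, so that no 2 members were seen to probe the same stretch.

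Among the iron pools, replicate 3 was the highest array in 13 of 23 members (56.5%), against 24.1% of all sequences. Replicate 2 was the lowest in 12 members, for which the share over all sequences was not counted. In the calcium section, replicate 3 was likewise the highest in 13 members, against 32.0% of all sequences. Iron replicate 3 had the lowest median foreground of the iron arrays, 211.7 units against 330.2 to 424.4 for the other 3, and calcium replicate 3 had the lowest in its section, 203.8 units. The part of scanner brightness in these small differences was not tested. In Plate-A-B12-5-SMART, iron replicate 3 read 1.18 and replicate 1 read 0.58, and in Contig[0278] they read 1.11 and 0.65. SDs between iron arrays ran from 0.036 to 0.31 with a median of 0.11, against a median margin of 0.99. The largest SDs, 0.31 in Contig[0064] and 0.28 in Plate-A-B12-5-SMART, stood with margins of 1.33 and 1.13. Among small margins the SD was 0.17 in Contig[0016], at a margin of 0.52, and 0.064 in PlateB-E4-5-SMART, at 0.58.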

How the data were processed

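Arrays carried 2240 probes on 493 sequences. The authors' value table holds a ratio, with direction and centring found by comparison with the scanner values: the mean foreground intensity of a probe over the mean of all probes of that array. The authors also deposited scanner tables of foreground intensity per spot, with no background column, per the file headers. Total RNA was prepared in Trizol and made into Cy5 targets with the Kreatech ampULSe kit, per the labels' protocols. Columns were assigned by sample and groups and replicate numbers by title.

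The ratios were log2-transformed, quantile-normalised and averaged over the 4 or 5 probes of a sequence with R 4.3.3. Limma 3.58.1 (lmFit and eBayes, two-sided) was fitted over all sequences and 16 arrays with a mean per tissue, which differs from the usual start from scanner values because the rule is defined on the value table. Benjamini-Hochberg adjustment was made within each contrast. The fit was tested on simulated data. P-values measure the spread between pools of 3 of the 12 animals.

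Same-numbered arrays were checked for shared deviations from the tissue means across sequences. In the 4 pairs, the correlation was 0.282 to 0.502 for immature and foot muscle. It was 0.281 to 0.651 for calcium and foot muscle, and both ranges lay above the minimum of 0.1. For calcium and immature it was -0.009 to 0.588, which did not reach the minimum in every pair. The fit behind the results holds no term for the number, so its foot muscle contrasts ignore this correlation. With the number as a block, limma called 17 members in immature minus foot muscle, against 16 without it. In calcium minus foot muscle it called 13 either way. The share of all sequences called with the block was not counted. No source says that a number marks the same animals.

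Members and lists were chosen with earlier results of these data known. The sequences named are the 20 members with the largest margins, the first 10 of them with all array values, the 3 sequences on either side of the threshold, up to 5 called members per direction with the largest difference in each tested contrast, the 3 members highest in iron, and the most and the least even over probes. Alternatives covered background correction (normexp, offset 50), scaling, the summary over probes, the disputed arrays, the replicate number, the slide sector, array weights, the exclusion of radula-wide sequences, a margin of 1, the dimmest 25% of sequences, single probes and each array left out. The probe sequence of 1 of the 10 leading members is not reported here.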

Additional observations from a re-analysis of the deposited data

Results flagged for a closer look

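In 92 groups of 4 arrays (23 sequences in 4 tissues), Dixon's ratio of the gap of an extreme array to the range exceeded its critical value in 7, where chance flags about 1 group in 20. Plate-B-F9-5-SMART had a ratio of 0.942 in foot muscle, with replicate 2 at -1.10 below the others at -0.90 to -0.89, and 0.835 in the calcium section, with replicate 2 at -1.0 below the others at -0.91 to -0.89. PlateD-D11-5-SMART had 0.92 in foot muscle, with replicate 2 at -1.70 and the other 3 at -1.80. PlateC-B9-5-SMART had 0.88 in the calcium section, with replicate 3 at -1.61 above the others at -1.77 to -1.76. Contig[0249] had 0.866 in the iron section, with replicate 4 at 0.71 below the others at 0.95 to 0.98. PlateB-E4-5-SMART had 0.86 in the calcium section, with replicate 3 at -1.71 below the others at -1.58 to -1.55. Plate-B-F2-5-SMART had 0.832 in the immature section, with replicate 1 at -0.84 above the others at -0.95 to -0.93.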

How the results depend on the processing

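The number of sequences that met the rule was 23, and 20 to 24 with 1 array left out. It was 28 with normexp background correction (5 gained, 0 lost) and 28 with cyclic loess (6 gained, 1 lost). Median scaling gave 24 (2 gained, 1 lost) and the median over probes 22 (1 gained, 2 lost). It was 11 with a margin of 1 and, in an alternative chosen after seeing the data, 10 where every probe had to pass 0.5. Contig[0016] and plateD-C7-5SMART-primer failed with the files as recorded through the exclusion of radula-wide sequences, since their margins there were 0.88 and 0.71. Calls of calcium minus immature, 20 with all arrays, numbered 13 under median scaling and 0 with the files as recorded. Calls of immature minus foot muscle, 16 with all arrays, numbered 7 as recorded. Calls of calcium minus foot muscle, 13 with all arrays, numbered 7 under median scaling and 7 as recorded. With 1 array left out the counts were 19 to 20, 15 to 17 and 13. Shares of all sequences called were not counted under other scalings, with the replicate block or with 1 array left out. With the files as recorded, calcium minus immature changed sign in 4 called members, Contig[0016] at -0.03, Contig[0058] at 0.02, Contig[0154] at -0.02 and Plate-B-F2-5-SMART at -0.01, each with a limma adjusted p of 0.999. Of 624 values of the 24 differences that are the largest called ones per contrast and direction under 26 alternatives, 597 kept their direction and call, 25 kept the direction and lost the call and 2 reversed. The cause of these changes was not tested. The files as recorded differ from the value table in the section given to 4 arrays, and the labels do not settle which source is right. The replicate block gave 20, 17 and 13 calls in the 3 contrasts and, besides PlateD-G6-5-SMART, changed no call. Without a background column no probe could be set against its background, which limits every dim value.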
